A study of Solanum lycopersicum with 3 samples.

Results

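DXS, PDS and HMGR encode enzymes of isoprenoid and carotenoid synthesis. They were taken by symbol alone, as every probe set whose platform or current gene symbol was one of these names. The rule found 3 genes with 1 probe set each, out of 803 genes named on the array. DXS was read by probe set Les.3510.1.S1_at (Entrez gene 544220) and PDS by Les.259.2.S1_a_at (544073). HMGR, whose older symbol is HMGR1, was read by Les.4372.1.S1_at (543702).

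Plants make the building blocks of isoprenoids by a pair of separate routes. In the plastid, DXS, deoxyxylulose phosphate synthase, opens the methylerythritol phosphate pathway, whose products feed carotenoid synthesis. PDS, phytoene desaturase, acts further on, desaturating the colourless phytoene on the way to lycopene, the red pigment of ripe tomato. DXS and PDS are coded in the nucleus, made in the cytosol and imported into the plastid. HMGR, hydroxymethylglutaryl-CoA reductase, makes mevalonate for the cytosolic route that leads to sterols, and its protein sits in the endoplasmic reticulum (ER) membrane.

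The series asked how the way RNA is extracted from tomato pericarp, the fleshy fruit wall, changes the transcripts recovered. All RNA came from the Ailsa Craig cultivar, and 3 preparations were each hybridised to 1 Affymetrix tomato array. The pellet preparation was RNA re-extracted by the Ex2 method from the cell debris spun down at 10000 x g for 15 min. The Ex2 preparation was RNA from the supernatant of that spin, after 10 to 12 g of tissue had been homogenised in 2 ml per g of a buffer with Tris, sucrose, magnesium and potassium chloride. The Ex1 preparation was made with 1 ml per g of a phenol-containing buffer, mixed directly with phenol and chloroform. No mutant or treatment was involved, and the labels do not say whether the preparations shared fruit or how ripe the fruit was.

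With 1 array per preparation there is no spread between samples, and every difference below is between single arrays, with no test. The labelled tissue was checked on ripening genes. Of 11 ripening symbols 8 were named on the array and all 8 were bright, with summed intensities of 49096 (pellet), 54047 (Ex2) and 50202 (Ex1). The 3 named epidermal lipid transfer and related genes summed to 6672, 7698 and 2365 in the same order, and the 1 named green tissue gene, CAB4, read 522, 227 and 306. The seed marker TAS14 read 62 to 66, below the brightness cut, and no vascular marker was named. The arrays also differed in their controls. The median of 21 bacterial hybridisation spike probe sets was 796 (pellet), 1160 (Ex2) and 509 (Ex1). For actin, the signal at the 3′ end over that at the 5′ end, which reflects RNA integrity and labelling, was 1.35, 1.71 and 1.20. For EF1a, an elongation factor gene, that ratio was 2.81, 3.27 and 2.62. The control for 25S ribosomal RNA read 568 (pellet), 367 (Ex2) and 1810 (Ex1). The spikes and both end ratios were thus highest on the Ex2 array, whereas the ribosomal RNA signal was highest and the epidermal sum lowest on the Ex1 array. The part of these values in the results was not tested.

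The deposited intensities of DXS were 1895 on the pellet array, 5287 on the Ex2 array and 3340 on the Ex1 array. DXS was therefore brightest in the supernatant extract and dimmest in the debris pellet, with the direct phenol extract between. PDS read 875 on the pellet array, 1866 on Ex2 and 1466 on Ex1, in the same order. HMGR read 101 on the pellet array, 280 on Ex2 and 91.5 on Ex1. It was bright on the Ex2 array only, and its other values were close to each other. The preparations differed in how the RNA was extracted. Lower recovery by a preparation, fewer cells of a type and less RNA per cell cannot be told apart here.

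**Figure D1:**
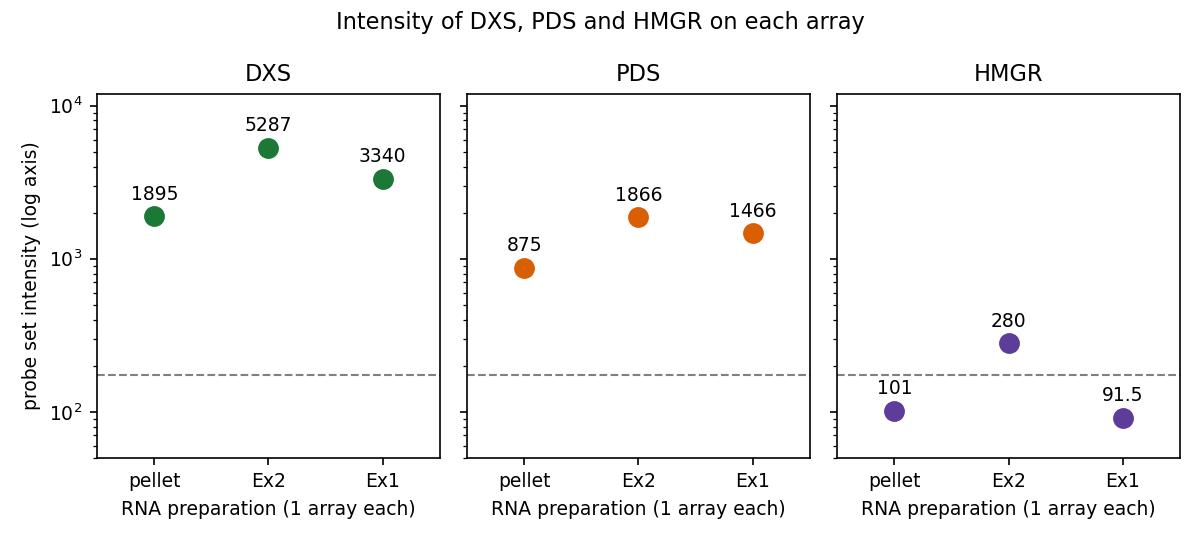
Deposited probe set intensity (log axis) of DXS, PDS and HMGR on the pellet, Ex2 and Ex1 arrays, 1 point per array. The dashed line is the brightness cut of 175; DXS and PDS lie above it on every array, HMGR on the Ex2 array only (280), and heights are to be read within a gene, not between genes.

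The arrays were compared on log2(intensity + 1). A probe set entered a comparison when the brighter of its values reached 175, the median of all values of the 10038 probe sets that are not controls. With no replicates, the nearest guide to measurement error is how far probe sets of 1 gene lie apart in the same comparison. Over 26 genes the median gap was 0.22 on the log2 scale in Ex2 minus Ex1. It was 0.38 over 24 genes in pellet minus Ex2, and 0.18 over 25 genes in pellet minus Ex1. It is measured within arrays and holds nothing of the spread between preparations. The comparisons share arrays, so the third difference of a gene is the sum of the other two.

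The first question was what the supernatant method recovered relative to direct phenol extraction. HMGR was 3.03-fold higher in Ex2 than in Ex1, a log2 difference of 1.60. DXS was 1.58-fold higher (0.66) and PDS 1.27-fold higher (0.35). Scaling the arrays on the hybridisation spikes turned the direction of DXS to -0.53 and of PDS to -0.85, and left HMGR higher at 0.41. Of the 3 genes, 1 was at least 2-fold higher in Ex2, where 17.3% of 5568 bright probe sets were, and 0 were at least 2-fold lower, where 10.1% were. HMGR entered this comparison through its Ex2 value alone, so its passing the filter and its difference are not separate facts.

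The place of these differences among all bright probe sets does not move when an array is multiplied by a constant. The median log2 difference of all bright probe sets was -0.25 for Ex2 minus Ex1. Relative to it HMGR stood 1.85 higher, DXS 0.92 and PDS 0.60. A larger difference than that of HMGR was found in 13.5% of probe sets, than that of DXS in 19.7% and than that of PDS in 24.3%. DXS and PDS thus lay above most bright probe sets. So did HMGR, but its place is tied to the Ex2 value that let it pass the filter.

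The second question was what stayed in the debris pellet relative to the supernatant. DXS and PDS were at least 2-fold lower in the pellet, and so was HMGR, which again passed the filter through its Ex2 value alone. Of 5538 bright probe sets 19.8% were at least 2-fold lower and 17.0% at least 2-fold higher. DXS was 2.79-fold lower, with a log2 difference of -1.48. HMGR was 2.74-fold lower (-1.46) and PDS 2.13-fold lower (-1.09). Each direction held under every scaling run, from -2.37 for DXS on ribosomal protein genes to -0.54 for PDS on the spikes, although on the spikes none of the 3 reached 2-fold. A lower difference was found in 11.1% of probe sets than that of DXS, in 11.5% than that of HMGR and in 17.8% than that of PDS.

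The third comparison was between the debris pellet and RNA extracted directly in phenol. DXS was 1.76-fold lower in the pellet than in Ex1 (-0.82) and PDS 1.67-fold lower (-0.74), and both directions held under every scaling run. HMGR differed by 0.15, less than the typical gap of 0.18 between probe sets of a gene, with both values under the brightness cut, and it turned to -0.50 on the spikes. Neither of the 2 genes that passed the filter reached 2-fold, where 3.78% of 5297 bright probe sets were at least 2-fold higher and 4.78% at least 2-fold lower. The differences of DXS and PDS were nevertheless toward the low end of this narrow comparison, with 7.27% and 8.67% of probe sets lower. The median of all bright probe sets here was 0.

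**Figure D2:**
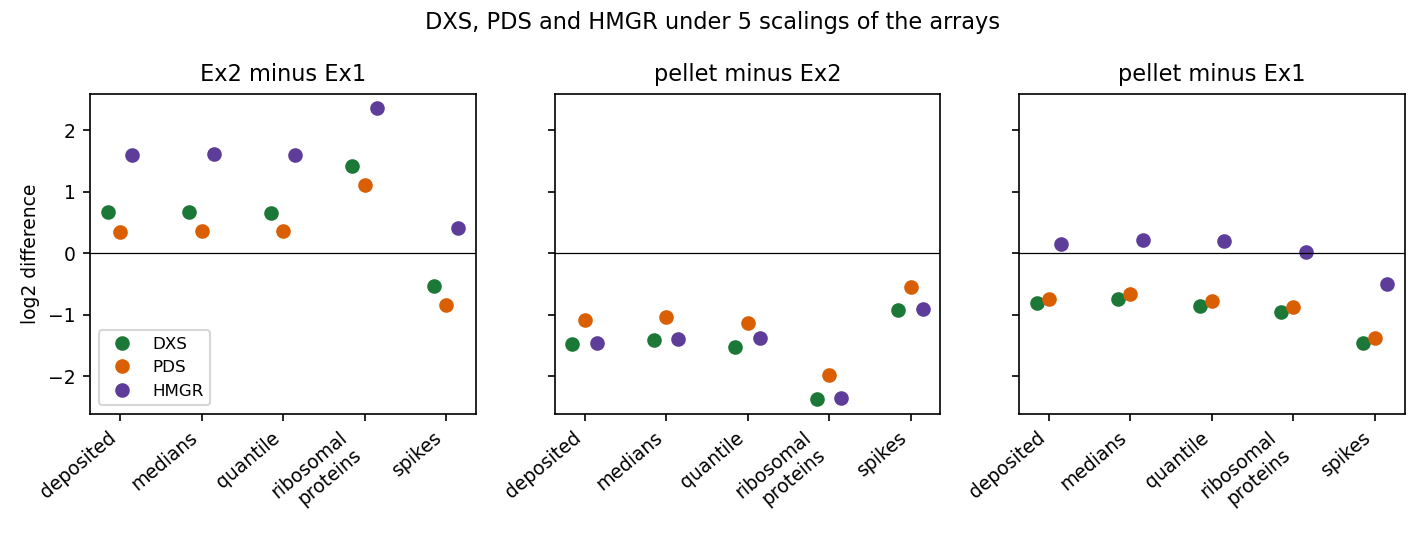
Log2 differences of DXS, PDS and HMGR in the 3 comparisons, on the deposited scale and under 4 other scalings of the arrays (medians, quantiles, ribosomal protein genes, hybridisation spikes), 1 point per gene and scaling. Pellet minus Ex2 lies below 0 for all 3 genes throughout; for Ex2 minus Ex1, DXS and PDS turn to -0.53 and -0.85 on the spikes.

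The plastid enzymes were then set against the ER enzyme within each comparison, a difference in which any constant scaling of an array cancels. For Ex2 minus Ex1, DXS stood -0.94 and PDS -1.25 from HMGR, folds of 1.92 and 2.38. Both rest on the HMGR reading of 91.5 on the Ex1 array, below the brightness cut, and HMGR passed the filter through its high Ex2 value, which favours a large difference. For pellet minus Ex1, where HMGR did not pass the filter, the values were -0.96 for DXS and -0.89 for PDS. For pellet minus Ex2, DXS differed from HMGR by -0.02 and PDS by 0.36, within the 0.38 gap between probe sets of a gene. That gap holds nothing of the spread between preparations, so these values describe single arrays and do not establish a difference between plastid and ER enzymes. Of the plastid pair, DXS lay 0.31 above PDS for Ex2 minus Ex1, -0.39 from it for pellet minus Ex2, and -0.07 from it for pellet minus Ex1.

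A further 14 genes of plastid isoprenoid and carotenoid synthesis were named on the array, and of these 16 with DXS and PDS, 12 were bright. In Ex2 minus Ex1, 0 of the 12 were at least 2-fold higher, beside 17.3% of all bright probe sets, and 0 lower, beside 10.1%. With scaling on ribosomal protein genes 7 were at least 2-fold higher, and on the spikes 5 were lower. The list's median was 0.28, against -0.25 over all bright probe sets. Of the 12, 8 were above 0 on the deposited scale, 12 with scaling on ribosomal protein genes and 0 with scaling on the spikes. In pellet minus Ex2, 5 of the 12 were at least 2-fold lower, beside 19.8% of all bright probe sets, and 0 higher, beside 17.0%. The count of lower genes was 11 with ribosomal scaling, 0 on the spikes and 0 at a 3-fold threshold. The median was -0.81, against 0.07 over all bright probe sets. In pellet minus Ex1 all 12 were below 0, under both of those scalings too, with CrtR-b1 nearly tied on the deposited scale. The list's median was -0.40, against 0 over all bright probe sets. On the spikes the median of all probe sets was itself -0.64, so being below 0 there says little. The list's median on the spikes was -1.04. None of the 12 reached 2-fold on the deposited scale, but 6 were at least 2-fold lower on the spikes and 1 with ribosomal scaling.

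Within the methylerythritol phosphate pathway the genes differed among themselves. DXS, at its entry, had the largest differences of the 4 bright pathway genes in each comparison on the deposited scale. On the spikes its Ex2 minus Ex1 difference was the smallest of the 4. HDS, an enzyme near its end, read 1946 on the pellet array, 4074 on Ex2 and 2863 on Ex1, which put the pellet 2.09-fold below Ex2. DXR, the enzyme that follows DXS, read 696, 966 and 815, with a pellet minus Ex2 difference of -0.47 that the spikes turned. ISPE, the kinase in the middle of the pathway, read 1416, 1706 and 1770, and its pellet minus Ex2 difference of -0.27 also turned on the spikes. DXS and HDS therefore shared the order Ex2, Ex1, pellet with a wide range, while ISPE varied little.

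Of the carotenoid genes around PDS, some had a range like its own and some were nearly flat, while NCED1 was low on the pellet array alone. PTOX, the plastid terminal oxidase that takes electrons from phytoene desaturation, read 1541 on the pellet array, 3240 on Ex2 and 2536 on Ex1. Its log2 differences were 0.35, -1.07 and -0.72, beside 0.35, -1.09 and -0.74 for PDS. ZDS, the desaturase that acts after PDS, read 1579, 2692 and 2178, with a pellet minus Ex2 difference of -0.77. ZEP, zeaxanthin epoxidase, read 142, 289 and 180, the pellet value being 2.02-fold below that of Ex2. Its pellet value was under the brightness cut of 175, so ZEP passed the filter in pellet minus Ex2 through its Ex2 value alone. Its place among the genes counted as at least 2-fold lower is tied to that value.

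Psy1, the fruit phytoene synthase that makes the substrate of PDS, read 11741 on the pellet array, 13478 on Ex2 and 13657 on Ex1. Its pellet minus Ex1 difference of -0.22 was the largest of the 3 in size. Of its other probe sets, 1 had the same 197 on every array and 1 was below the cut throughout, at 58.8, 30.4 and 72.2. CrtR-b1, a beta-carotene hydroxylase, read 1068, 1068 and 1070, with identical deposited values on the pellet and Ex2 arrays. NCED1, which cleaves carotenoids for abscisic acid synthesis, read 510, 917 and 969 and was the lowest of the list in pellet minus Ex1, at -0.93. NSY, whose older symbol is Cyc-B, read 153, 196 and 179.

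On the cytosolic and ER side, 5 genes were named, HMGR among them, and 4 were bright. In Ex2 minus Ex1, 1 of the 4, HMGR, was at least 2-fold higher, beside 17.3% of all bright probe sets. In pellet minus Ex2, 2 of the 4 were at least 2-fold lower, beside 19.8%. That count was 0 on the spikes, 0 at 3-fold and 1 with a brightness filter at the upper quartile, which HMGR did not pass. In Ex2 minus Ex1 the count of higher genes was 0 on the spikes and with that filter. It was 2 with centring on medians, with ribosomal scaling and with the mean of probe sets. It was also 2 with probe sets marked for shared probes left out. The list's medians of 0.40 and -0.54 lay between genes far apart and changed sign with the filter and with the spikes. In pellet minus Ex1 the list had 3 bright genes, without HMGR. All 3 were below 0 on the deposited scale, with ribosomal scaling and on the spikes, as the plastid list was, with a deposited median of -0.15. CYP85A1, a cytochrome P450 of brassinosteroid synthesis, read 2447 on the pellet array, 5675 on Ex2 and 2840 on Ex1. Its Ex2 minus Ex1 difference was 1.00, just under the threshold and small enough to turn with scaling on the spikes, and that of its other probe set was 1.45. In pellet minus Ex2 CYP85A1 was 2.32-fold lower, so HMGR and CYP85A1 shared a high Ex2 value and near-equal values elsewhere.

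FPPS1, a farnesyl diphosphate synthase that works downstream of HMGR, read 1078 on the pellet array, 891 on Ex2 and 1193 on Ex1. CCD1B, a carotenoid cleavage dioxygenase outside the plastid, read 2017, 1837 and 2096. Their Ex2 minus Ex1 differences were -0.42 and -0.19, directions that turned with scaling on ribosomal protein genes. In the same comparison HMGR was at 1.60, so the list divided into a membrane-bound pair and a soluble pair. That division was drawn with the values in view and rests on 2 genes above 0 and 2 below. Whether membrane binding has a part in it was not tested.

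**Figure D3:**
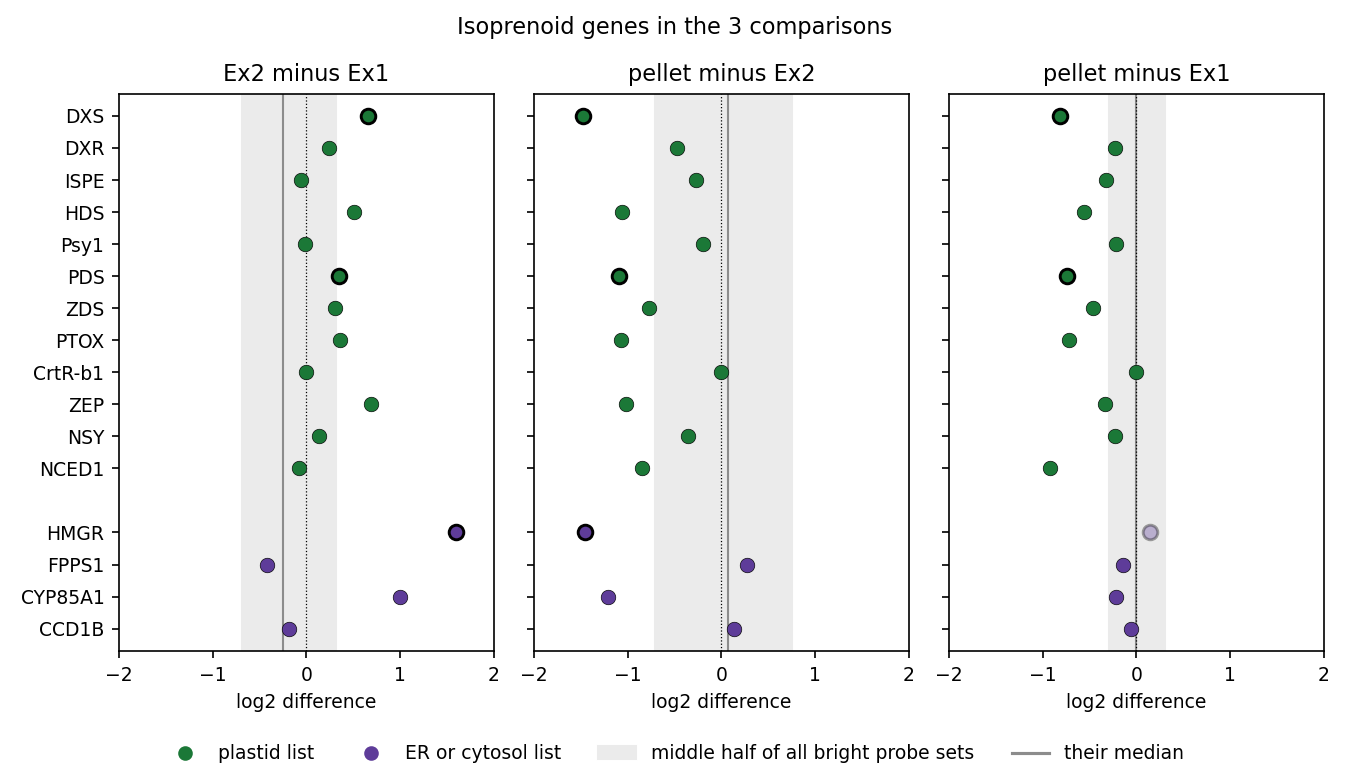
Log2 differences of the bright isoprenoid genes in the 3 comparisons, with 12 genes of the plastid list above 4 of the ER or cytosol list, and DXS, PDS and HMGR ringed. Grey bands run from the lower to the upper quartile of all bright probe sets and the grey line is their median; HMGR is pale where it was under the brightness cut, and on the deposited scale 11 of 12 plastid genes lie below 0 in pellet minus Ex2 (7 of 12 on the spikes).

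Other proteins of the same compartments gave a wider setting for the 3 genes. Most of the 11 bright genes for other plastid proteins were of photosynthesis. In Ex2 minus Ex1, 1 of the 11 was at least 2-fold higher, beside 17.3% of all bright probe sets, and 1 lower, beside 10.1%. The list's median was -0.28, near the -0.25 over all bright probe sets. In pellet minus Ex2, 4 were at least 2-fold higher, beside 17.0% of all bright probe sets, and 1 lower, beside 19.8%. The median was 0.44, while that of the plastid isoprenoid list was -0.81. The sign of both medians of the other plastid proteins turned with scaling on ribosomal protein genes. PSBR of photosystem II read 10806 on the pellet array, 5961 on Ex2 and 9513 on Ex1, the reverse of the order of DXS and PDS. The lipoxygenase gene loxC, of fruit aroma, read 889, 4310 and 1847, and CS1, chorismate synthase, read 1159, 1676 and 1612. These were the 2 other plastid genes in the order of DXS and PDS.

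Of 6 bright genes for other ER membrane proteins, all ethylene receptors or EIN2, 6 were at least 2-fold higher in Ex2 than in Ex1. The share over all bright probe sets was 17.3%. Of the 6 genes, 2 turned below 0 with scaling on the spikes. Their median of 2.03 was above the 1.60 of HMGR. In pellet minus Ex2 all 6 were at least 2-fold lower, beside 19.8% of all bright probe sets, with a median of -2.02. EIN2 and ETR6, at 131 and 113 on the Ex1 array, passed the filter in Ex2 minus Ex1 through their Ex2 values alone. So did ETR6, at 134 on the pellet array, in pellet minus Ex2. ETR2 was close to HMGR, with 206 on the pellet array, 686 on Ex2 and 226 on Ex1, and it too was 3.03-fold higher in Ex2 than in Ex1. ETR4, with 2152, 7508 and 3583, differed from HMGR in that its pellet value lay below Ex1, at -0.74. This list was chosen with its values in Ex2 known, so its count is no separate support.

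The order of the arrays gave a scale-bound summary. DXS and PDS had the order Ex2, Ex1, pellet from high to low. Of the 12 bright plastid isoprenoid genes 8 had that order, with DXS and PDS counted among the 8. It was found in 15.5% of the 5671 probe sets bright on any array. HMGR had the order Ex2, pellet, Ex1, as did 16% of those probe sets, but its pellet and Ex1 values were both dim and only 0.15 apart. On the spikes the order of HMGR was Ex2, Ex1, pellet, and that of DXS and PDS was Ex1, Ex2, pellet. The most frequent order, pellet, Ex1, Ex2, was found in 31.6% of probe sets, in 6 of 11 other plastid genes and in 0 genes of either isoprenoid list.

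Named genes with the pattern most like each enzyme were found by the distance between their pairs of log2 differences, Ex2 minus Ex1 and pellet minus Ex2, over 3 arrays. The search covered 469 named genes bright on any array and outside the lists. Nearest to DXS were FLACCA, a molybdenum cofactor sulfurase, at a distance of 0.10, SPS, sucrose phosphate synthase, at 0.15, and the aldehyde oxidase gene TAO2 at 0.18. SPS read 1422 on the pellet array, 3655 on Ex2 and 2472 on Ex1. Nearest to PDS were TCTR2, CTR3 and CTR1, all kinases of the CTR type, at 0.06, 0.08 and 0.08. CTR1 read 201, 442 and 363.

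Nearest to HMGR were EXP1, the ripening expansin, at 0.18, the amino acid permease gene AAP1 at 0.21 and the sucrose transporter gene SUT2 at 0.24. EXP1 read 2796 on the pellet array, 6811 on Ex2 and 2321 on Ex1, well above the brightness cut. AAP1, at 85.6, 217 and 62.8, and SUT2, at 111, 345 and 101, were like HMGR above the cut on Ex2 only. These genes were picked for their likeness to HMGR, so they lend its values no separate support. DXS and PDS lay 0.50 apart by the same measure, DXS and HMGR 0.94, and PDS and HMGR 1.30. The median distance to the genes searched was 1.77 from DXS, 1.52 from PDS and 2.16 from HMGR.

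**Figure D4:**
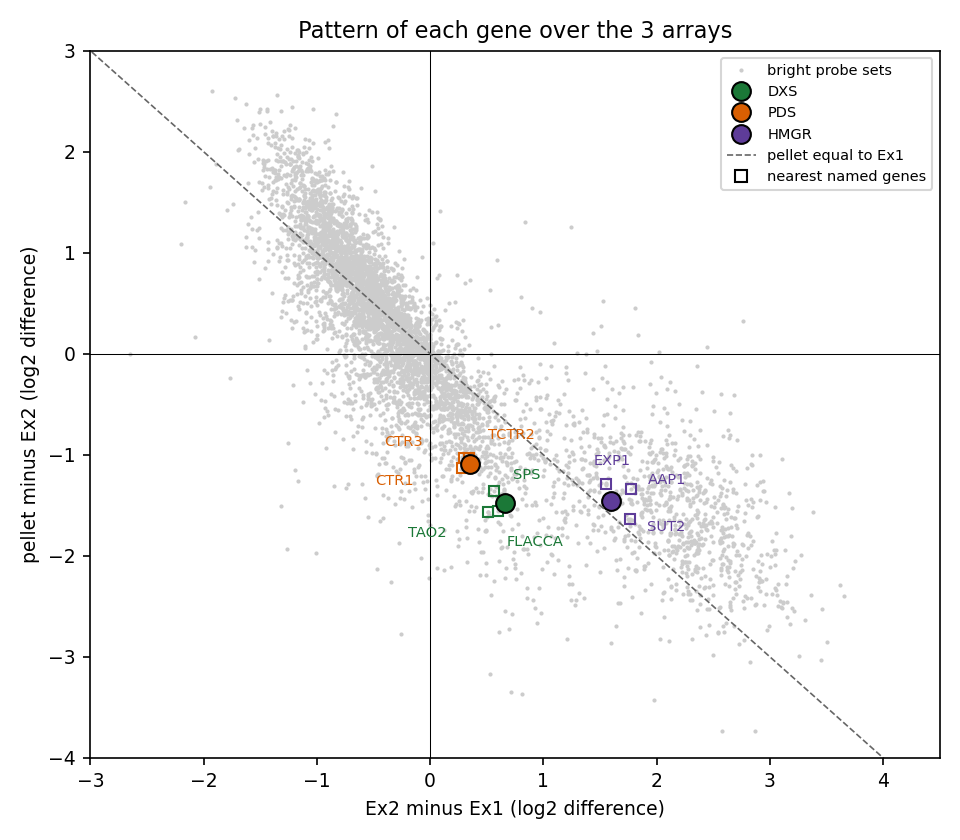
Ex2 minus Ex1 (x axis) against pellet minus Ex2 (y axis), both log2 differences, for the 5671 probe sets bright on any array (grey), with DXS, PDS and HMGR as filled circles and the nearest 3 named genes of each as squares. The axes share the Ex2 array, which tilts the cloud downward; on the dashed line the pellet equals Ex1, and HMGR lies close to it while DXS and PDS lie below it, on the deposited scale.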

How the data were processed

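Total RNA was measured on 3 tomato arrays, 1 per preparation. The deposited values were taken as linear probe set intensity values, a scale inferred from their range. They were made with GCOS 5.0 and RMA per the submitters' processing notes, which give no order or parameters. The table holds 10209 probe sets, of which 171 are controls. Names came from the platform annotation, updated through the Entrez ID with RefSeq assembly SLM_r2.1. Of the probe sets, 909 had 1 name (885 of them in RefSeq), 9129 had none, and 0 had several. Without probe sequences, signal from related genes such as other HMGR copies could not be told apart.

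Comparisons were log2(intensity + 1) differences with no test, a brightness cut of 175 and a threshold of 2-fold. A gene with several probe sets was represented by the brightest. The named genes are DXS, PDS and HMGR, the bright genes of 4 lists by compartment, and the 3 nearest patterns of each enzyme. They, and the lists, were chosen with earlier results of these data known. The alternatives were other filters, scalings, pseudocounts, probe set rules and thresholds. The code was tested on simulated data. Python 3.11.15, pandas 2.3.3, NumPy 2.4.6 and matplotlib 3.10.9 were used.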

Additional observations from a re-analysis of the deposited data

How the results depend on the processing

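A value was counted as moved when it shifted by more than the median gap between probe sets of 1 gene, and a count when it changed by over 1.5 times. Of 153 values under an alternative for DXS, PDS and HMGR and for the counts of all probe sets, 113 did not move, 37 moved and 3 reversed. Some could not move by construction, since constant scalings cancel in the differences of DXS and PDS from HMGR and each of the 3 genes has 1 probe set. Quantile normalization and a pseudocount of 16 could move those differences, and neither did. Centring on medians, quantile normalization and a pseudocount of 16 moved none of the 3 genes. For centring this was fixed in advance. It shifted every difference by 0.01 in Ex2 minus Ex1, 0.06 in pellet minus Ex2 and 0.07 in pellet minus Ex1. These shifts are smaller than the gaps that define a move.

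Scaling on ribosomal protein genes moved the median log2 difference of all probe sets by 0.76 between Ex2 and Ex1, -0.89 between pellet and Ex2 and -0.13 between pellet and Ex1. With the spikes it moved by -1.19, 0.55 and -0.64. With ribosomal scaling DXS, PDS and HMGR were at 1.42, 1.11 and 2.36 between Ex2 and Ex1, and at -2.37, -1.99 and -2.35 between pellet and Ex2. On the spikes they were at -0.53, -0.85 and 0.41, then at -0.93, -0.54 and -0.91, and for pellet minus Ex1 at -1.46, -1.39 and -0.50. The plastid isoprenoid median for Ex2 minus Ex1 was -0.92 on the spikes and the ER or cytosol one -0.79. The ER or cytosol median for pellet minus Ex2 was 0.0088 on the spikes. With the upper-quartile filter that list's medians were -0.19 and 0.13 for those 2 comparisons.

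Probe sets past 2-fold, higher and then lower, were 964 and 560 in Ex2 against Ex1, 943 and 1095 in the pellet against Ex2, and 200 and 253 in the pellet against Ex1. The upper-quartile filter gave 606 and 297, 592 and 635, and 96 and 97. Ribosomal scaling gave 1511 and 9, then 97 and 2291, and the spikes 438 and 3993, 1994 and 567, and 36 and 1121. At 3-fold, 21 were lower in Ex2 than in Ex1, 255 and 538 were higher and lower in pellet minus Ex2, and 43 and 58 in pellet minus Ex1. At 1.5-fold, 1725 were lower in Ex2, 1712 higher in pellet minus Ex2, and 647 and 669 apart in pellet minus Ex1. Why the scalings differ was not tested. Leaving out all probe sets with a suffix for shared probes left PDS without a value, although its own suffix (_a_at) marks probes shared by transcripts of the same gene. No paired analysis was possible because each preparation had 1 array, and for the same reason none could be left out. HMGR was dim on the pellet and Ex1 arrays.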

Other observations

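Of the isoprenoid genes named on the array, 5 were too dim to compare on any array. PSY2, a second phytoene synthase gene, read 140 on the pellet array, 155 on Ex2 and 136 on Ex1. The lycopene cyclase gene LCY1 read 125, 124 and 165, and VDE, violaxanthin de-epoxidase, read 93.0, 82.2 and 134. CRTL-E-1, the epsilon cyclase gene, had 16.3 and CCD1A 60.5 on every array, ties in the deposited table.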
